A study of Mus musculus with 88 samples.

Results

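Cluster 10 is a group of 244 mouse cells, all Eed null, that carry transcripts of germline genes. Its members are the cells with cluster number 10 in the deposited cell table, at a clustering resolution of 2.5, out of 4949 kept cells in 22 clusters, 1181 of them Eed null. The cells were embryonic stem cells (ESCs) kept in serum and LIF (day 0) or cells of embryoid bodies (EBs), free-floating aggregates in which ESCs differentiate once LIF is withdrawn, at days 4, 7 and 10. Live cells were sorted by 7-AAD exclusion, 1 per well, and each captured mRNA was counted by a unique molecular identifier (UMI). Each of the 4 genotypes (WT E14, Mtf2 null, Jarid2 null and Eed null) had 1 library per day, 16 libraries in all, made from EBs pooled over wells. All Eed null cells lack Eed, a core subunit of Polycomb Repressive Complex 2 (PRC2), and were compared within their own libraries with other Eed null cells, which lack it too. The labels give E14 as the strain of the Eed null single cells, whereas the methods name J1 as the matching background of the Eed null line, so against WT cells the genotype and the line background cannot be told apart. For a separate comparison, bulk RNA labelled Eed null and J1 was sequenced at days 2, 4 and 7 from whole EBs and at day 0 from cells that the column names mark as a monolayer, although the sample labels read embryoid bodies there too.

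PRC2 places the repressive mark H3K27me3 on histone H3, and Eed binds that mark and is needed for the activity of the complex. Many germline genes are kept silent in somatic cells and in the early embryo by DNA methylation, by Polycomb complexes and by factors such as E2F6, which bind CpG-rich promoters. Dppa3 (Stella) protects the maternal genome from DNA demethylation and marks primordial germ cells, oocytes and a fraction of ESCs. Dnmt3l is a cofactor of the de novo DNA methyltransferases in germ cells, and Dppa2 is a chromatin factor of pluripotent and germ cells. ESCs express all of these genes to some degree, so their transcripts alone do not separate germ cells from pluripotent cells.

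With 1 library per genotype and day there is no replicate for a test among the single cells. UMIs were therefore summed over the cells of a group and scaled to a total of 1000000 UMIs (UMI CPM), and a gene is called past the fold where the log2 ratio of 2 groups exceeds 1 in size and the higher group has at least 50 UMI CPM. Intervals are 95% intervals that cover counting error only. The clustering used the same cells and genes, so differences between cluster 10 and other cells describe the cluster and are not tests.

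Cluster 10 held 25 of 340 kept Eed null cells at day 0 (7.35%, exact Clopper-Pearson interval 4.81 to 10.7), 83 of 320 at day 4 (25.9%, 21.2 to 31.1), 126 of 319 at day 7 (39.5%, 34.1 to 45.1) and 10 of 202 at day 10 (4.95%, 2.4 to 8.92). The shares were highest at day 7 and lowest at days 10 and 0, whose intervals overlap. Among cells with at least 2500 UMIs they were 7.43%, 28.5%, 38% and 5.11%. The kept cells of the series had 1143 to 105019 UMIs with a median of 6650. Cells of cluster 10 were deeper than the other Eed null cells of the same library, with medians of 9947 against 9318 UMIs at day 0, 9540 against 4600 at day 4, 6883 against 6289 at day 7 and 5911 against 4910 at day 10. Of the cluster 10 cells, 11 at day 4 and 5 at day 7 lay above the 95th percentile of UMIs of their library. The libraries use the same 384 well barcodes, and 28 barcodes occurred among cluster 10 cells of both day 4 and day 7, as 124 wells held a kept cell in all 4 Eed null libraries.

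The targeted gene was nearly absent from the cluster. Eed had 7 UMIs in the 244 cells, or 3.22 UMI CPM, against 6.41 in the other Eed null cells and 478 in WT cells at day 0. A UMI of Eed was found in 6 of 244 cluster 10 cells (2.46%), while 92.6% of WT cells at day 0 had one.

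Of the 3 genes in the cluster's label, Dppa3 and Dnmt3l were past the fold against all other cells and Dppa2 was not. Dppa3 reached 263 UMI CPM at day 0, 617 at day 4, 860 at day 7 and 117 at day 10 within cluster 10. It was therefore higher at days 4 and 7 than in the ESC and day 10 members, and the cluster as a whole had 666 UMI CPM against 110 in all other cells (log2 ratio 2.60, 2.51 to 2.68). The other Eed null cells of the same libraries had 190, 306, 116 and 58.6 UMI CPM of Dppa3 at days 0, 4, 7 and 10. All were below the cluster, though at days 0 and 10 the counting intervals overlap. Dnmt3l ran the other way from day 0 to day 7 and was also lowest at day 10, with 914, 752, 651 and 384 UMI CPM in cluster 10 at days 0, 4, 7 and 10. The cluster had 717 UMI CPM of Dnmt3l against 290 in all other cells (log2 ratio 1.30, 1.23 to 1.38), but the other Eed null cells had more of it at day 0 (1013) and at day 4 (984) and much less at day 7 (143). Dppa2 had 118, 106, 147 and 100 UMI CPM in the cluster and 125 over all its cells, against 92.9 in all other cells (log2 ratio 0.43, 0.24 to 0.60) and 178 in WT cells at day 0. Within the Eed null libraries Dppa2 was below the other cells at day 0 (118 against 144 UMI CPM) and above them at days 4, 7 and 10 (59, 52.2 and 17.2). Of the label's genes, Dppa3 was thus higher in summed UMI CPM than in the other Eed null cells in all 4 libraries, Dppa2 in 3 and Dnmt3l in 2. For Dppa3 the intervals were apart only at days 4 and 7.

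**Figure D1:**
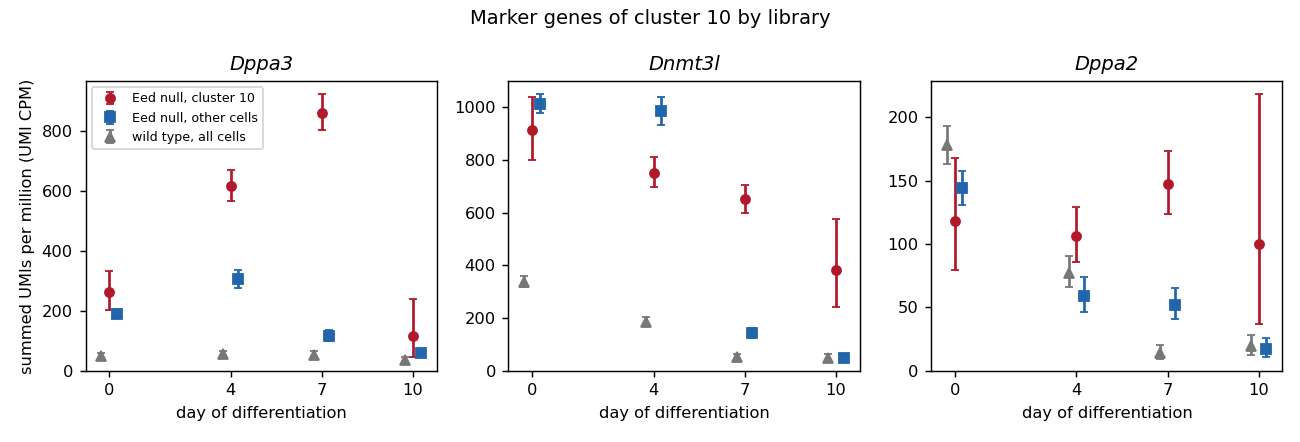
Summed UMI CPM of Dppa3, Dnmt3l and Dppa2 (vertical axes, from 0) by day of differentiation (horizontal axes) in cluster 10, in the other Eed null cells and in WT cells. Each point is 1 group of cells from 1 library and bars are 95% Poisson intervals of the counts. The points of Dppa3 lie above both other groups in every library, from 117 to 860 UMI CPM, with bars that overlap those of the other Eed null cells at days 0 and 10. Dnmt3l lies below the other Eed null cells at days 0 and 4 and above them at days 7 and 10.

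The 3 markers were found together in many single cells. A UMI of Dppa3 was present in 197 of 244 cluster 10 cells (80.7%, 75.2 to 85.5) and one of Dnmt3l in 215 (88.1%, 83.4 to 91.9). Of the 244 cells, 178 had both, 19 had Dppa3 without Dnmt3l, 37 had Dnmt3l without Dppa3 and 10 had neither, and 100 cells had a UMI of all 3 markers. With every cell thinned to 2500 UMIs, which leaves 225 of the cluster's cells, the shares were 61.3% for Dppa3, 75.1% for Dnmt3l and 22.7% for Dppa2. In cluster 4, whose cells are at the low end for all 3 genes, the thinned shares were 0.993%, 1.32% and 0%, from a median depth of 6137 UMIs against 8018 in cluster 10. In the clusters most like cluster 10 they were 42.7%, 84.1% and 10.1% (cluster 9) and 35.6%, 85.3% and 31.3% (cluster 6). Cluster 10 was thus above both for Dppa3, below both for Dnmt3l and between them for Dppa2. Per cell, up to 32 UMIs of Dppa3 and 56 of Dnmt3l were counted in the cluster.

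Germline genes were among those with the highest ratios against all other cells, and 4 of the first 15 (Slc25a31, Stra8, Sohlh2 and Dazl) are in the list of later germline genes. Of 4815 genes with at least 50 UMI CPM in either group, 186 (3.86%) were higher in cluster 10 and 142 (2.95%) were lower. The first was the lincRNA 1700018B24Rik (chromosome 3, 48605732 to 48609102), with 74.1 UMI CPM against 2.39 (log2 ratio 4.95, 4.57 to 5.35). It was followed by Rhox13, a reproductive homeobox gene, with 64.9 against 2.75 UMI CPM (log2 ratio 4.56), and by Slc25a31, which codes for the ADP/ATP carrier of male germ cell mitochondria, with 60.8 against 3.85 UMI CPM (log2 ratio 3.98). Stra8, the retinoic acid target that licenses entry into meiosis, had 55.2 against 3.76 UMI CPM (log2 ratio 3.87). Dazl, an RNA-binding protein of germ cells, had 183 against 17.7 UMI CPM (log2 ratio 3.37), and Sohlh2, a transcription factor of early oocytes and spermatogonia, 227 against 21.6 UMI CPM (log2 ratio 3.39). Aurkc, the Aurora kinase of meiosis, had 56.2 against 4.51 UMI CPM, and Scml2, a Polycomb-group protein of the male germline, 77.3 against 6.16 UMI CPM. The other genes among the first 15 were Uba1y, Pdzk1, 1700013H16Rik, Xlr3c, 4933402E13Rik, Rhox9 and Pnma5, with log2 ratios from 3.01 (Pnma5) to 3.97 (Uba1y). Rhox9, Xlr3c and Uba1y have close relatives in the genome, and reads of such copies may have been divided between them.

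These genes were not equally distinct within the Eed null libraries. Of the 50 genes with the highest ratio against all other cells, 31 were past the fold higher than the other Eed null cells at day 7, where 5.36% of 5055 genes were higher and 7.79% lower, and 11 at day 4, where 10.2% of 4681 genes were higher and 3.05% lower. None of the 50 was past the fold lower in either library. Against all other Eed null cells together 26 of the 50 were past the fold higher and 0 lower, where 0.777% of 4762 genes were higher and 2.02% lower. The 50 had been ranked on the same cluster 10 UMIs, against cells that included the other Eed null cells. The direction of these counts is thus largely set by the ranking, and they only describe how the set varies between libraries. In the day 0 library, with 25 members, 5.64% of 4928 genes were higher and 2.98% lower. Slc25a31 had 31.4, 39.2, 83.1 and 167 UMI CPM in the cluster at days 0, 4, 7 and 10 against 14.3, 9.72, 25.4 and 7.81 in the other Eed null cells, so the cluster was higher in every library. Sohlh2 had 227, 246, 197 and 401 UMI CPM in the cluster against 88.5, 182, 31.8 and 23.4, and at day 4 it was not past the fold (log2 ratio 0.44). Pnma5 was lower in the cluster than in the other day 4 cells, with 49 against 68.8 UMI CPM.

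A list of 40 later germline and meiosis genes, chosen with earlier results of these data known, was described in the same way. Of the list, 35 genes are in the table and 17 had at least 50 UMI CPM in cluster 10 or in all other cells. Of these 17, 15 were past the fold higher and 0 lower, where 3.86% of all 4815 genes were higher. The median log2 ratio was 2.51 against 0.00 over all genes. A gene can reach 50 UMI CPM through cluster 10 alone, as Smc1b, Mael and Tex15 did. The filter thus favours the higher direction, and the count is a description only. The other counts of listed genes use the same filter. Members past the fold included Smc1b, the meiotic cohesin subunit, with 126 against 16.2 UMI CPM, Mael, of the piRNA pathway, with 81 against 11.3, and Tex15, a factor of meiotic recombination and transposon silencing, with 161 against 34.5. The synaptonemal complex gene Sycp3 had 56.2 against 47.3 UMI CPM and was not past the fold, and Ddx4, the germ cell RNA helicase, had 37.3 against 18.3. Against the other Eed null cells, 14 of 17 were past the fold higher at day 7 and 2 of 15, Tex15 and Tex19.1, at day 4, with 0 lower in both. Over all genes 5.36% were higher at day 7 and 10.2% at day 4, so the day 4 count lies near that of all genes.

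Summed per cell, the 35 genes made up a median of 1723 UMI CPM in cluster 10 at day 0, 2209 at day 4, 2315 at day 7 and 3637 at day 10. The medians were 1410 in cluster 9, 1375 in cluster 6, 528 in cluster 17, 230 in cluster 13 and 486 in WT cells at day 0. Cells of the cluster varied widely, with the 10th and 90th percentiles at 929 and 4421 UMI CPM at day 7. The 10 cells of day 10 had 534 UMI CPM of Stra8 and 801 of Dazl, above the other days, from 59891 UMIs in all.

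**Figure D2:**
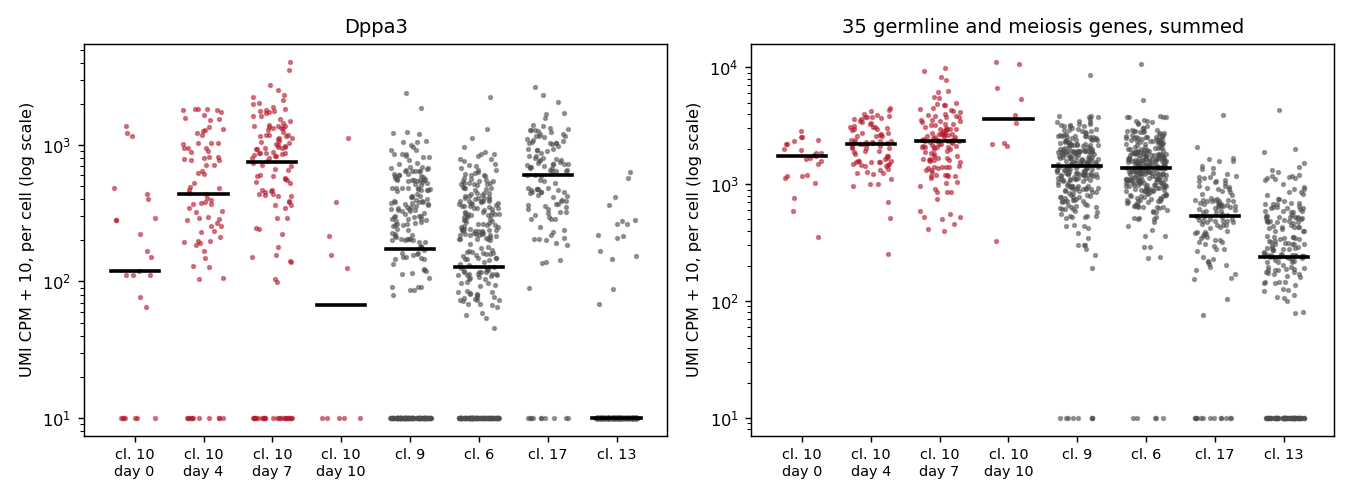
UMI CPM per cell of Dppa3 (left) and of 35 later germline and meiosis genes summed (right), on log axes after adding 10, for the cluster 10 cells of each library and for clusters 9, 6, 17 and 13. Each point is a cell and each bar a median. The germline sum is highest in cluster 10, with medians from 1723 to 3637 UMI CPM, and lower in clusters 9 (1410), 6 (1375), 17 (528) and 13 (230).

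**Figure D3:**
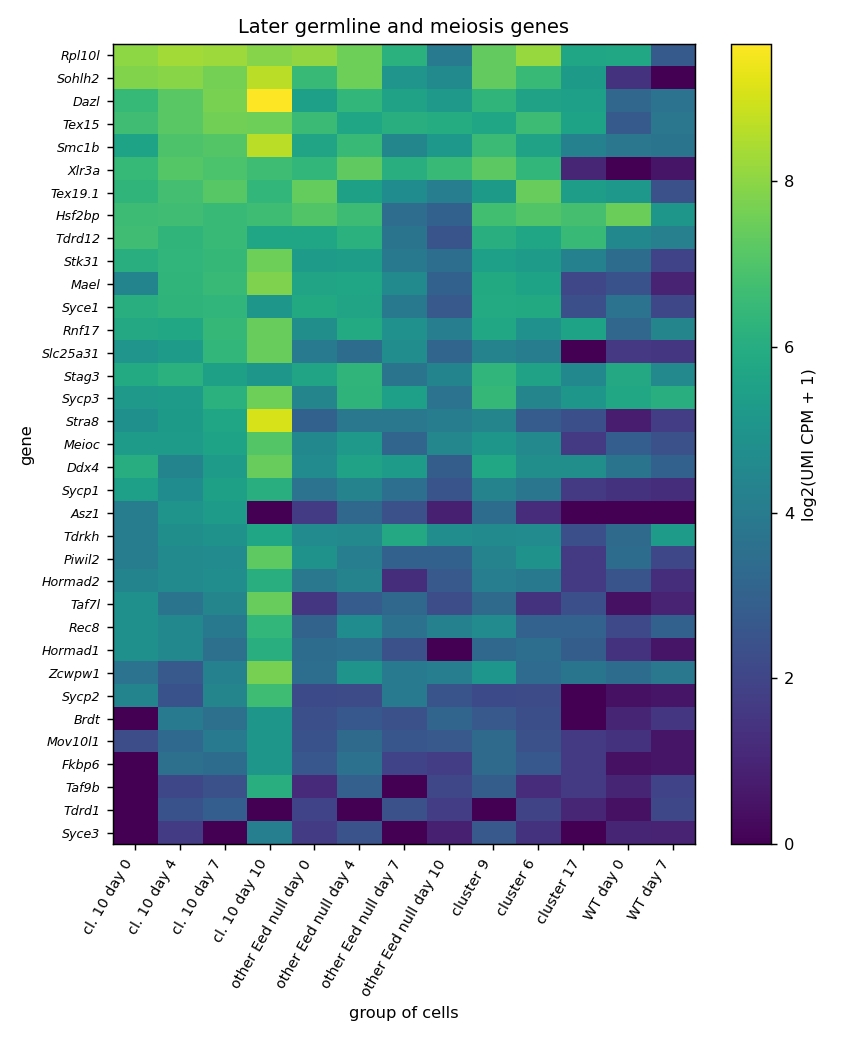
Level of each later germline and meiosis gene (rows, ordered by the level in cluster 10) in groups of cells (columns), as log2(UMI CPM + 1) of the summed counts. The columns of cluster 10 are brighter than those of the other day 7 Eed null cells and of WT cells for most of the upper rows, and the other Eed null cells of days 0 and 4 lie between them.

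Genes of germ cell specification were less distinct than those of the later germline. Of 13 genes of that list in the table, 8 had at least 50 UMI CPM in either group, and Dppa3 and Tcl1, an ESC and germ cell kinase cofactor, were past the fold higher against all other cells while Ifitm3 was lower. Over all genes 3.86% were higher and 2.95% lower in that comparison. The transcriptional regulators that found the germline were low, with Prdm1 at 26.7 UMI CPM in cluster 10 against 23.9 in all other cells and Prdm14 at 29 against 10.7. Tfap2c, which acts beside them, had 118 against 83.1 UMI CPM. Ifitm3, a membrane protein of early primordial germ cells, had 82.8 UMI CPM in cluster 10 against 339 in all other cells, and the other Eed null cells had 82.2. Cluster 17, which held 125 Jarid2 null and Mtf2 null cells, was chosen for comparison after its values were seen. It was close to cluster 10 in Dppa3, with a UMI in 92% of its cells against 80.7% (73.5% against 61.3% after thinning), but had 115 UMI CPM of Prdm1, 274 of Tfap2c, 798 of Ifitm3 and 142 of Dnmt3l. Against cluster 17, 13 of 17 later germline genes were past the fold higher in cluster 10, where 10.5% of 4893 genes were, and 5 of 9 specification genes were lower, where 6.25% were.

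Naive pluripotency genes were higher in the cluster than in the other cells of the day 7 library, but not of the day 0 library. Nanog had 267, 394, 418 and 167 UMI CPM in cluster 10 at days 0, 4, 7 and 10, against 211 in WT cells at day 0 and 91.7 in the other Eed null cells at day 7. Zfp42 (Rex1), a marker of naive ESCs, had 604, 643, 697 and 117 UMI CPM against 77.6 in the other Eed null cells at day 7. Sox2 had 1106, 1058, 920 and 217 UMI CPM. In the day 7 library, 15 of 16 naive pluripotency genes with at least 50 UMI CPM were past the fold higher in the cluster and 0 lower, where 5.36% of all genes were higher, with a median log2 ratio of 2.66. In the day 0 library 0 of 18 were higher and 4 lower (Zfp42, Nr0b1, Nr5a2 and Tdh), where 5.64% of all genes were higher and 2.98% lower. Against all other Eed null cells 0 of 18 passed in either direction, with a median of 0.00. There 0.777% of all genes were higher and 2.02% lower, so that count lies near that of all genes. Klf4, which is higher in naive cells, was an exception over time, with 302 UMI CPM at day 0, 86 at day 4 and 75.6 at day 7.

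Genes of blood and fibroblasts were low in the cluster against all other cells. Of 18 genes of blood, endothelium and heart in the table, 15 had a UMI in cluster 10 and together they had 82.8 UMI CPM, against 1629 in all other cells and 167 in the other Eed null cells, with Hbb-y, Emcn and Tnnt2 at 0. The fibroblast list summed to 82.4 UMI CPM in the cluster against 582 in the other Eed null cells, with Postn and Dcn at 0. All 4 of its genes with at least 50 UMI CPM were lower than in all other cells, where 2.95% of all genes were. A gene can reach 50 UMI CPM through the other cells alone, which favours the lower direction, so the count is a description only. The 10 genes with the lowest ratios against all other cells were the globins Hba-x, Hbb-bh1, Hba-a1, Hba-a2, Hbb-y and Hbb-bh0, the neural gene Olig2, Eed, Cdh11 and Tmem88. Hba-x had 1 UMI in cluster 10 and 765 UMI CPM in all other cells (log2 ratio -10.7, -16.0 to -8.22), but it had no UMI in the other Eed null cells at days 4 and 7 either. Cdh11, a mesenchymal cadherin, had 3.68 against 55.8 UMI CPM, and in the day 7 library 8.52 against 128. Of the 50 genes with the lowest ratios, 23 were past the fold lower than the other Eed null cells at day 7 and 2 higher, where 7.79% and 5.36% of all genes were. At day 4, 0 were lower and 1 higher, where 3.05% and 10.2% were. Against cluster 9, 0 were lower and 3 higher, where 2.97% and 11.2% were. In each of the day 4 and cluster 9 comparisons 12 of the 50 reached 50 UMI CPM. Of 35 Hox genes, 0 had 50 UMI CPM in cluster 10 or in all other cells, and together they had 191 UMI CPM in the cluster against 486 in the other Eed null cells. In the day 7 library, 5 Hox genes reached that level and all 5 were lower in the cluster, where 7.79% of all genes were.

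Some genes of a trophoblast and simple epithelium list were higher, and those that passed are not specific to that lineage. Of its 15 genes in the table, 7 had at least 50 UMI CPM, and Gata2, a zinc finger factor of trophoblast and blood, and the X-linked homeobox genes Rhox5, Rhox6 and Rhox9 were past the fold higher against all other cells, with 0 lower. Over all genes 3.86% were higher and 2.95% lower. Gata2 had 119 against 20.1 UMI CPM and Rhox5 had 140 against 22. Summed over the list, cluster 10 reached 912 UMI CPM against 388 for all other cells, while the trophoblast determinant Cdx2 had 0.46 UMI CPM in the cluster. Within the libraries the direction of some members differed by day, with Krt8, a keratin of simple epithelia, at 139 against 51.6 UMI CPM in the other Eed null cells at day 4 and at 93.7 against 214 at day 7. The part of trophoblast-like cells in the cluster was not tested.

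Several imprinted genes and p53 targets were lower in the cluster than in all other cells, and cell cycle genes were not. Of 18 imprinted genes with at least 50 UMI CPM, 2 were past the fold higher than in all other cells (H19 and Sfmbt2) and 7 lower, where 3.86% of all genes were higher and 2.95% lower. Among the 7 were Mest (103 against 338 UMI CPM) and Meg3 (25.3 against 173). None of the imprinted genes named here was past the fold lower against cluster 9. Their log2 ratios there were 1.21 (Mest), 0.38 (Meg3), 0.13 (H19) and 0.59 (Sfmbt2). At day 7, 13 of 21 were lower than in the other Eed null cells and 1 higher, where 7.79% of all genes were lower and 5.36% higher, with H19 at 159 against 666 UMI CPM. At day 4, 1 of 14 was higher and 0 lower, where 10.2% of all genes were higher and 3.05% lower, so the day 4 counts lie near those of all genes. Of 9 p53 target and stress genes 4 were lower against all other cells, where 2.95% of all genes were. Among them was the cell cycle inhibitor Cdkn1a (70.9 against 196 UMI CPM), but the other Eed null cells were lower too, with 53. Of 22 genes of the S and G2/M phases, 0 were past the fold in either direction against all other cells, where 3.86% of all genes were higher and 2.95% lower.

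Promoter sequences of the leading genes were read to see which motifs they share. RefSeq promoter windows on GRCm38.p6, of 300 bases with 250 before the start site, were found for 37 of the 50 genes with the highest ratios (44 windows) and for neither Dppa3 nor Dppa2. The E-box CACGTG, the core of sites for MAX and USF factors, was present on either strand in 4 of 44 windows (9.09%), against 7.15% of all 32851 windows. The E2F motif GGCGGGAA was present in 2 of 44 windows (4.55%), against 2.19%, and the motifs can overlap by 1 base at most. The median number of CG dinucleotides was 10 per window against 7 in all windows. It was higher in the other sets of 50 leading genes, at 15 for the lowest against all other cells and 16 for both the highest and the lowest against cluster 9. The E-box was more frequent in another set, the 50 genes with the lowest ratios against cluster 9, with 10 of 46 windows (21.7%). Below are 3 germline promoters with an E-box and that of Ifi30 from the set low against cluster 9, chosen after the motif results were seen, 5′ to 3′ on the strand of the gene with the motifs in capitals. Slc25a31 lies at chr3:40708621-40708920 (+), Mael at chr1:166238695-166238994 (-), Stk31 at chr6:49395289-49395588 (+) and Ifi30 at chr8:70766614-70766913 (-).
Slc25a31: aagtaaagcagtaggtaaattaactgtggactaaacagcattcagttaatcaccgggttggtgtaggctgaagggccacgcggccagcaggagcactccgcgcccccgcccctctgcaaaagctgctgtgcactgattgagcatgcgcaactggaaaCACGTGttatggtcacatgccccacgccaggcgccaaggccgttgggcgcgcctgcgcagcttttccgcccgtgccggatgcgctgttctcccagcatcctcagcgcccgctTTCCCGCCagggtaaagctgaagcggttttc
Mael: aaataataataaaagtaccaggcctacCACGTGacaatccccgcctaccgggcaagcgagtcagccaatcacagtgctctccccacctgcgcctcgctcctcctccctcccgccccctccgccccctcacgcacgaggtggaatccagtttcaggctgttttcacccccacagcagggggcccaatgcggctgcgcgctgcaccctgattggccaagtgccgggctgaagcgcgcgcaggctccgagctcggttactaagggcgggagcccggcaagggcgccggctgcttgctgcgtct
Stk31: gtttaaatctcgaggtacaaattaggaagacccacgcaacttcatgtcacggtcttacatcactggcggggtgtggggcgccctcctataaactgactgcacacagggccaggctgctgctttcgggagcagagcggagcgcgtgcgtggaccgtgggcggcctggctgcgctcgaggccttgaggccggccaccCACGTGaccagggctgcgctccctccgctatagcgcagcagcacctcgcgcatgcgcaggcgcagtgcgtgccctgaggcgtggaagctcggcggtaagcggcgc
Ifi30: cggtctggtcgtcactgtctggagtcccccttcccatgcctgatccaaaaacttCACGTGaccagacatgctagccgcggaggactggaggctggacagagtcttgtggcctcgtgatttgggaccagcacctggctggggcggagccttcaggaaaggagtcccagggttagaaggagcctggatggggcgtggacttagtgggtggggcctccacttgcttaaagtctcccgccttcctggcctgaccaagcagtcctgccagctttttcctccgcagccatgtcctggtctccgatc
The E-box begins at position -93 from the start site in Slc25a31, which also has an E2F motif, at -223 in Mael, at -55 in Stk31 and at -196 in Ifi30. A match describes the letters of a window and is not evidence of binding.

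Cluster 9 held 258 cells, 217 of them from the Eed null day 4 library. Across genes, log2 levels of cluster 10 correlated with those of cluster 6 (Pearson's r = 0.973), then cluster 9 (0.956), over the 15830 genes of the table, a description with no test. Of 4678 genes, 526 (11.2%) were past the fold higher in cluster 10 than in cluster 9 and 139 (2.97%) lower, so 79.1% of the called genes were higher. With TMM scaling, which moved the log2 ratios by 0.30, 205 were higher and 373 lower, so 35.5% of the called genes were higher, and the balance of directions depends on the scaling. Within the day 4 library, where cluster 10 had 83 cells, 13.3% of 4694 genes were higher and 3.71% lower. The depth differed too, with median UMIs of 8018 in cluster 10 and 4916 in cluster 9.

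Some pluripotency genes were past the fold higher in cluster 10 than in cluster 9. Lefty1, a secreted inhibitor of Nodal signalling, led with 70 against 9.01 UMI CPM (log2 ratio 2.96, 2.14 to 3.90). Nr5a2, a nuclear receptor that binds the Oct4 gene, had 70.9 against 12.5 UMI CPM (log2 ratio 2.51), and Id3, a target of BMP signalling, 242 against 49.2 (log2 ratio 2.30). L1td1, an RNA-binding protein of pluripotent cells, had 207 against 41.6 UMI CPM (log2 ratio 2.32). Nanog had 383 against 97.7 UMI CPM (log2 ratio 1.97) and Dppa3 had 666 against 277 (log2 ratio 1.27, 1.10 to 1.43, but 0.97 with TMM, short of the limit). Dnmt3l was lower in cluster 10, with 717 against 992 UMI CPM (log2 ratio -0.47), short of the limit. Of the naive pluripotency list 5 of 18 genes with at least 50 UMI CPM were past the fold higher and of the later germline list 5 of 18 (Dazl, Stra8, Tex15, Tex19.1 and Slc25a31), with 0 lower in both, where 11.2% of all genes were higher. The medians were 0.28 and 0.46 against 0.23 over all genes, and with TMM Dazl (0.93) and Fbxo15 (0.95) were no longer past the fold. Of 11 core pluripotency genes 2 (Sox2 and L1td1) were past the fold higher and 0 lower, with a median of 0.34, and Sox2 fell to 0.80 with TMM. Pluripotency genes with ratios below 0, short of the limit, included Pou5f1 (-0.43), Tfcp2l1 (-0.50) and Stat3 (-0.51). The other named genes were Dido1, Six4, Plpp1, Nav1, 1700013H16Rik, Eef1akmt1, Adgrl2 and Pimreg, with log2 ratios from 2.34 (Pimreg) to 2.56 (Dido1). Within the day 4 library all 12 of these leading genes were higher than cluster 9, with log2 ratios from 0.88 (1700013H16Rik) to 2.66 (Lefty1). The ranking had used the same day 4 cells, 217 of the 258 in cluster 9. The direction is thus largely set by the ranking and is a description only.

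Several abundant genes were lower in cluster 10 than in cluster 9, among them genes of glycolysis. Aldoa, a glycolytic enzyme, had 1568 UMI CPM in cluster 10 against 4137 in cluster 9 (log2 ratio -1.40), and Gapdh 392 against 958. Ndrg1, which is induced by hypoxia, had 88.4 against 228 UMI CPM. Of 19 glycolysis and hypoxia genes, 4 were past the fold lower in cluster 10 (Aldoa, Gapdh, Pgk1 and Ndrg1) and 1, Pdk1, was higher, where 2.97% of all genes were lower and 11.2% higher. With TMM, P4ha1 (-1.23) and Vegfa (-1.26) were past the fold too and Pdk1 (0.83) was not. The metallothionein Mt1 had 1708 against 4450 UMI CPM (log2 ratio -1.38). Apoe, a lipid carrier, had 192 against 1045 UMI CPM (log2 ratio -2.45, -2.61 to -2.29), the lysosomal thiol reductase Ifi30 had 159 against 815 (log2 ratio -2.36), and the heat shock gene Hspa1a had 5.98 against 77.6 (log2 ratio -3.70). The other named genes were 2900093K20Rik, Myl3, Adm, Cd68, Dll1, Icam1, Pyy, Sh2d3c and Ndufa4l2, with log2 ratios from -3.39 (2900093K20Rik) to -2.21 (Ndufa4l2). All 12 were lower within the day 4 library too, whose cells the ranking had used, so that direction is largely set by the ranking. At day 7 the other Eed null cells had 188 UMI CPM of Apoe and 83.3 of Ifi30, near or below the 198 and 116 of cluster 10.

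RNA content differed between the clusters within the day 4 library. Spike-in RNA had been added to every well, and cluster 10 cells had a median of 123 UMIs per spike-in UMI against 63.1 in cluster 9. The spike-in rows of the library tables hold 383 values for 384 wells and were placed 1 well later by their correlation with the well totals (0.31 against 0.07 at day 4), an inference from the data. In the other placement the medians were 137 and 66.1. At day 7 the median was 334 in cluster 10 and 358 in cluster 16, which held 112 other cells of that library. The part of RNA content in the differences from cluster 9 was not tested.

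Cluster 6, which holds 280 day 0 Eed null cells among its 303, gave another view of the cluster and was chosen after its values were seen. Of 4777 genes, 139 (2.91%) were past the fold higher in cluster 10 and 102 (2.14%) lower. Cluster 6 had 195 UMI CPM of Dppa3 but more Dnmt3l (1012) and Zfp42 (1378) than cluster 10, and 8 of 17 later germline genes were past the fold higher in cluster 10 with 0 lower. Of 18 naive pluripotency genes, 9 were lower in cluster 10, among them Klf4 (104 against 276 UMI CPM) and Klf5 (183 against 393). Of the 665 genes past the fold between clusters 10 and 9, 398 had the opposite sign between clusters 10 and 6, as had 6 of the 12 genes highest against cluster 9 (Dido1, Nr5a2, Nav1, Eef1akmt1, Pimreg and L1td1) and 9 of the 12 lowest.

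Within cluster 10, of 4828 genes 50 (1.04%) were past the fold higher at day 7 than at day 4 and 40 (0.829%) lower. The counts depend on how cells are weighted, with 104 higher and 78 lower as a mean over cells and 268 higher and 241 lower after thinning to 2500 UMIs, and the median depth was 6883 UMIs at day 7 and 9540 at day 4. Dlk1, an imprinted Notch ligand of mesenchymal and progenitor cells, had 123 UMI CPM at day 7 against 13.1 at day 4 (log2 ratio 3.23, 2.37 to 4.22), and Igfbp5, a secreted binding protein of insulin-like growth factors, 79.9 against 9.79 (log2 ratio 3.03). Vim, the intermediate filament of mesenchymal cells, had 63.9 against 15.2 UMI CPM, and the imprinted gene Peg3 255 against 74. Id3 had 391 against 124 UMI CPM (log2 ratio 1.66) and Lars2, the mitochondrial leucyl-tRNA synthetase, 439 against 123. Wls, 1700013H16Rik, Tnfrsf19, AA474408, Tpt1-ps5 and Pbx3 completed the 12 highest, with log2 ratios from 1.48 (Pbx3) to 2.27 (Wls). Several of these genes were far higher in the other cells of the day 7 library, with 863 UMI CPM of Dlk1, 1797 of Peg3 and 893 of Vim. A UMI of Dlk1 was found in 57.1% of day 7 and 9.64% of day 4 cluster 10 cells, and after thinning in 27.4% and 2.53%, against 60.3% of the thinned other day 7 cells. The part of RNA from those cells in the difference was not tested.

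Rhox6 and Rhox9 of the X-linked Rhox cluster were past the fold lower at day 7, while Rhox5 had 120 against 180 UMI CPM and was not. Rhox9 had 58.6 UMI CPM at day 7 against 181 at day 4 (log2 ratio -1.62) and Rhox6 68.2 against 186 (log2 ratio -1.45). Fthl17a, Pycard, Npr1, AU015836, Mme, Sfrp2, Arrdc4, Dgkz and Mylpf were also among the 12 lowest, with log2 ratios from -1.62 (Fthl17a and Pycard) to -1.28 (Mylpf). The marker genes moved less, with log2 ratios of 0.48 (0.32 to 0.64) for Dppa3, -0.21 (-0.37 to -0.05) for Dnmt3l and 0.48 (0.09 to 0.87) for Dppa2. Of 17 later germline genes with at least 50 UMI CPM, 1, Slc25a31, was past the fold higher at day 7 and 0 lower, with a median log2 ratio of 0.19 against 0.01 over all genes. Of 17 naive and 11 core pluripotency genes 1, Stat3, was past the fold, and it was lower. T (Brachyury), a gene of the primitive streak, was found in 15 of 126 cells at day 7 and 1 of 83 at day 4, against 22.8% of the other day 7 Eed null cells. After thinning these shares were 5.31%, 1.27% and 15.2%.

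**Figure D4:**
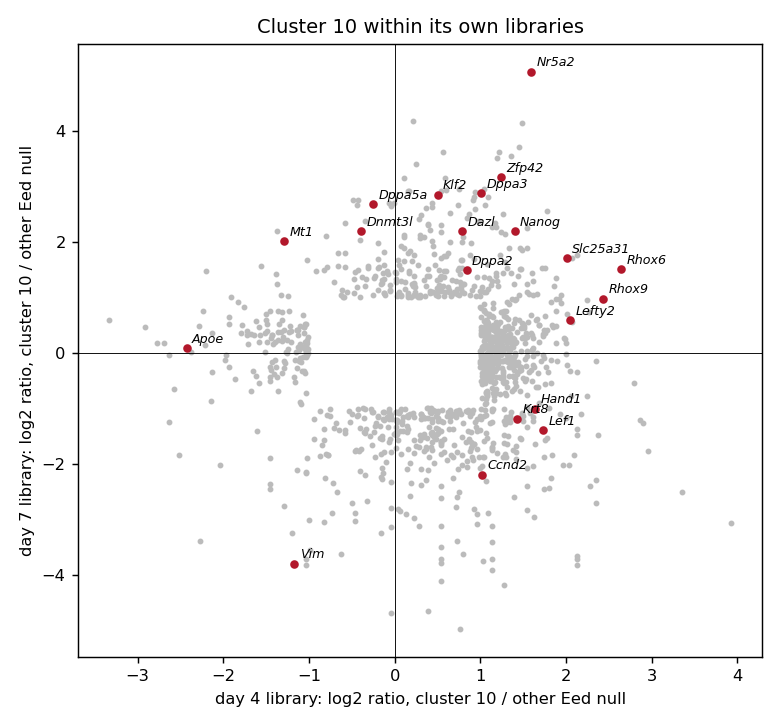
Log2 ratio of UMI CPM between cluster 10 and the other Eed null cells of the same library, at day 4 (horizontal) and at day 7 (vertical), for the 1213 genes past the fold in either library. Labelled points are 20 genes chosen after their values were seen. Dppa3, Nanog and Zfp42 lie at the upper right, higher in the cluster in both libraries, whereas Mt1 lies at the upper left and Ccnd2 and Lef1 at the lower right.

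Of the genes past the fold within the day 4 or the day 7 library, 72 were past it in both. Of 4308 genes with at least 50 UMI CPM in both libraries, 42 were higher in both, 2 lower in both and 28 in opposite directions. Dppa3 (log2 ratio 1.01 at day 4 and 2.88 at day 7) and Nanog (1.40 and 2.19) were higher in both. At a higher clustering resolution of 8, 191 of the 244 cells, 65 of them from day 4 and 114 from day 7, formed a cluster of 192 cells, and 40 cells, of which 20 were from day 0, fell into another cluster. Between these groups 2.96% of 4859 genes were past the fold higher and 3.42% lower in the 191. The 40 cells, compared after the values were seen, had 403 UMI CPM of Dppa3 against 745 in the 191, and 312 of Klf4 against 71.

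The bulk samples are libraries that the clustering did not use. They were fitted with limma for the 8 samples labelled Eed null or J1, with the day as a block, on log2 CPM, in 14565 genes, of which 726 (4.98%) were higher and 671 (4.61%) lower at an adjusted p under 0.05. The bulk samples labelled Eed null had about as much Eed RNA as J1, with 118, 217, 112 and 62 CPM against 111, 256, 82.8 and 55.3 at days 0, 2, 4 and 7 (log2 fold change 0.11, SE 0.13, limma adjusted p = 0.61), so Eed RNA does not check the label. Of 26 Hox genes, which PRC2 represses in ESCs, 15 were higher with the label and 0 lower, with a median log2 fold change of 2.72. In bulk samples, more cells of a type and more RNA per cell cannot be told apart.

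Of the 50 genes with the highest ratios of cluster 10 against all other cells, 46 could be tested and 22 were called higher in the libraries labelled Eed null (47.8%, against 4.98% of all genes) and 0 lower. Their median log2 fold change was 1.73 against 0.00 over all genes. All cluster 10 cells are Eed null, but only 937 of the 4705 other cells are. Genotype and line background thus enter both comparisons and cannot be told apart here from traits of the cluster. The same applies to the genes with the lowest ratios. Slc25a31 had 38.1, 7.88, 8.91 and 15 CPM at days 0, 2, 4 and 7 with that label against 3.54, 2.61, 0.429 and 0.321 in J1, so each of its values was above the J1 value of its day (log2 fold change 3.35, SE 0.53, limma adjusted p = 0.021). Rhox13 had 29.8, 9.25, 7.89 and 5.98 CPM against 3.91, 1.81, 0.215 and 0.107 (log2 fold change 3.36, SE 0.44, limma adjusted p = 0.017). Stra8, Rhox9, Pdzk1 and Sohlh2 were called higher too, with log2 fold changes of 2.39, 2.16, 2.15 and 2.94 and limma adjusted p-values of 0.026, 0.018, 0.023 and 0.045. Each of these calls was lost in some of 12 other settings, being made in 7 for Slc25a31 (highest adjusted p = 0.14 among limma, edgeR and DESeq2 fits), 6 each for Rhox13, Rhox9 and Pdzk1 (0.18, 0.25 and 0.22), 5 for Sohlh2 (0.3) and 4 for Stra8 (0.37). Dazl had 43.9, 20.7, 13.4 and 26.9 CPM against 39.7, 13.8, 1.29 and 2.35 and did not pass (log2 fold change 1.82, limma adjusted p = 0.11), nor did Dppa3 (2.11, limma adjusted p = 0.098), for which the samples labelled Eed null were above J1 on each day but by little at days 0 and 2. Of the 37 later germline genes tested, 9 were higher and 0 lower.

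Of the 50 genes with the lowest ratios against all other cells, 40 could be tested and 11 were called lower (27.5%, against 4.61% of all genes) and 0 higher, Tmem88 among them (log2 fold change -2.55, SE 0.41, limma adjusted p = 0.021). The call of Tmem88 was made in 7 of the 12 other settings, with an adjusted p of up to 0.52 among limma, edgeR and DESeq2 fits. The sets from cluster 9 were closer to the background, with 6 higher and 2 lower of 50 for the highest and 0 higher and 4 lower of 42 for the lowest. The counts of calls fell when any 1 day was left out, to between 3 and 45 higher and between 4 and 42 lower genes over all genes, and the 22 fell to 2 without day 2, to 3 without day 0, 4 or 7, and to 0 without the day block. Each line had 1 sample per day, in which the columns named r1 and r2, technical replicates by the methods, were summed, so the spread is that between days.

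**Figure D5:**
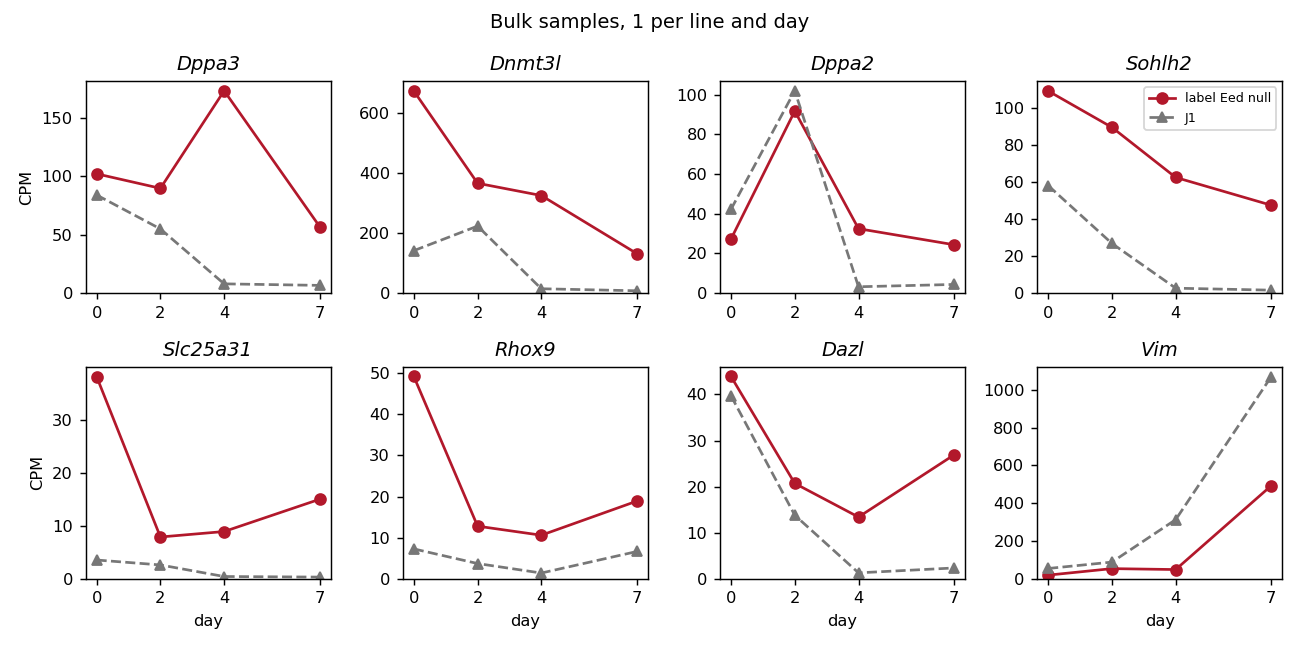
CPM of 8 genes (vertical axes, from 0) by day (horizontal axes) in bulk samples labelled Eed null and in J1 samples, from a monolayer at day 0 and EBs later, each point 1 sample. Slc25a31, Rhox9 and Sohlh2 are higher with the Eed null label on each day, Dppa3 and Dazl differ mainly at days 4 and 7, and Vim is lower with the label.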

How the data were processed

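Single live cells were sorted into 384-well plates and sequenced by SORT-seq. The authors aligned reads to GRCm38 (mm10) with Bowtie2, counted UMIs per gene with HTSeq, removed cells with few genes and deposited UMI counts with a table of cluster numbers from Seurat, clustered with the library regressed out. The deposited Eed null cells number 1181, more than the methods give. For bulk RNA the authors quantified paired reads with Salmon, and the deposited signal values are counts divided by DESeq2 size factors. Whole reads were recovered from these in 45 columns (100% of values whole within 0.02) and not in 1 Mtf2 null column, which entered no fit. Columns r1 and r2 of a sample were summed as its runs, and the 8 samples had 4071242 to 11082123 reads.

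Cells were taken from the deposited clusters. Counts were summed over cells and scaled to UMI CPM, and groups at 0 UMIs were taken at 3 UMIs. Cells were thinned to 2500 UMIs (seed 7) to compare shares. No doublets were called, and the comparison of days was repeated without cells above the 95th percentile of UMIs. Intervals for ratios are conditional exact binomial, for levels exact Poisson. Genes were named by rank of the log2 ratio among those past the fold (15 highest and 10 lowest against all other cells, 12 each way otherwise), with the marker and list genes. One gene that the rule names is not reported here. Genes in figures, the sequences and the comparisons with clusters 6 and 17 and at resolution 8 were chosen after values were seen. The members and lists were chosen with earlier results of these data known. Bulk samples were fitted with limma 3.58.1 (trend, TMM factors from edgeR 4.0.16, prior count 2) on genes with at least 1 CPM in 4 of 8 samples, with Benjamini-Hochberg adjustment. The count tests of edgeR and DESeq2 1.42.0 on recovered reads were alternatives. Scripts ran in Python 3.11.15 and R 4.3.3 and were tested on simulated data. With 1 sample per line and day, p-values measure the spread of the difference between days.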

Additional observations from a re-analysis of the deposited data

Results flagged for a closer look

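For 7 genes the log2 ratio of cluster 10 to the other Eed null cells was past the fold in opposite directions in the day 4 and day 7 libraries. The difference between days was not tested, since each day is 1 library, and the other cells of the libraries belong to different clusters. Higher in the cluster at day 4 and lower at day 7 were Adgrl2 (1.76 and -1.58), Ccnd2 (1.02 and -2.20), Hand1 (1.64 and -1.01), Krt8 (1.43 and -1.19) and Lef1 (1.73 and -1.40). Lower at day 4 and higher at day 7 were Mt1 (-1.29 and 2.01) and Ndrg1 (-1.33 and 1.04). For Ccnd2 the cluster had 197 UMI CPM at day 7 against 903 in the other cells. These 7 are the named or listed genes among 28 that turned in this way.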

How the results depend on the processing

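No paired analysis was possible because, by replicate number, each group has 1 sample, and the bulk lines were instead paired by day in the fit with the day block. Against all other cells the 186 higher genes became 420 with a minimum of 20 UMI CPM, 42 with 200, 37 against the other Eed null cells only and 477 within day 4, and the 142 lower became 322, 42 and, within day 7, 394. The log2 ratio turned for Dnmt3l (-0.39) and Pnma5 (-0.49) within day 4, Tmem88 (1.54) within day 4, Eed (2.92) within day 7 and Hbb-bh0 (1.31) against the other Eed null cells. The ratio of Eed rests on few UMIs, found at day 7 in 4 of 126 cluster 10 cells and 1 of 193 other Eed null cells. Against cluster 9 the 526 higher became 205 with TMM, 1254 with 20 and 59 with 200 UMI CPM, and the 139 lower became 373, 265 and 54. For day 7 against day 4 the 50 higher became 104 with a mean over cells, 281 with 20 and 3 with 200 UMI CPM, 268 after thinning and 82 without the deepest cells, and the 40 lower became 78, 178, 2 and, after thinning, 241. Shares with a UMI of Dppa3, Dnmt3l and Dppa2 were 61.3%, 75.1% and 22.7% after thinning.

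In bulk the 726 higher genes became 1373 with DESeq2, 349 with no filter and 3 with no day block, and 3 to 45 with a day left out, and the 671 lower became 1148, 345, 5 and 4 to 42. Of the genes highest against all other cells the 22 called higher became 0 with no day block, 14 with all 24 samples and 2 to 3 with a day left out. Of the lowest, the 11 called lower became 7 with no filter, 3 with no block and 3 to 5. For the genes highest against cluster 9, the 6 higher became 0 with no block and 0 to 1, and the 2 lower became 1 with edgeR, 1 with no filter, 0 with no block and 0 with any day left out. For the lowest, the 0 higher became 2 with DESeq2 and 1 with all 24 samples, and the 4 lower became 2 with edgeR, 2 with the deposited size factors, 2 with no filter, 0 with no block and 0 to 2. Fewer samples enter with a day left out, and the cause of the other differences was not tested. No fold is given for 17 values of 9 genes with 3 or fewer UMIs in both groups. Shares of cluster 10 per library and RNA content moved by less than their counting error or spread.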
